A study of Rattus norvegicus with 24 samples.

Results

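The metallothioneins followed here were Mt1 and Mt2A, given in the deposited count files as ENSRNOG00000038047 and ENSRNOG00000043098. They are 2 of the 30560 gene identifiers counted. The members were picked by gene identity, with earlier results of these data known. The names Mt1 and Mt2A came with the identifiers, because the files themselves hold no gene names, and they were not checked against an annotation of the files' build. For Mt1 this leaves a doubt. The identifier took at most 1.47% of the Mt2A count in liver, and it is not known here whether it is the expressed Mt1 gene or a copy of it, so an Mt1 count or level below is that of this identifier, while the Mt1 promoter is matched by symbol. Polyadenylated RNA of wild-type Sprague Dawley rat pups gave 24 libraries, in 6 groups of 4 formed by tissue (lung, liver) and treatment. Every pup received 5 subcutaneous injections, 1 a day from postnatal day 1. Control pups received the vehicle, 2.5% ethanol. The dexamethasone dose was 0.1 mg/kg, and that of desisobutyryl ciclesonide was 1.25 mg/kg. Tissue was frozen on postnatal day 6, 24 hours after the last dose, so the levels describe that time and not the hours just after a dose. Both drugs act on the glucocorticoid receptor. Desisobutyryl ciclesonide, the form into which tissues convert the prodrug ciclesonide, was itself the compound injected. The doses differed. Nothing in the labels says that replicates came from separate litters, so p-values measure only the spread among the libraries, which may be technical in part.

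Metallothioneins are small proteins rich in cysteine that bind zinc and copper in the cell and take up cadmium. Their transcription rises with zinc through the metal-responsive factor MTF-1, which binds metal response elements in the promoters, and it also rises with glucocorticoids, inflammatory cytokines and oxidative stress. The liver of newborn rodents is known for high metallothionein and a large store of zinc. In the RefSeq annotation both genes lie on chromosome 19, in a cluster with Mt3 and Mt4.

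The promoters are shown because both genes carry repeated copies of the element through which metals act on them. Each window runs from 250 bases before to 50 bases after the RefSeq gene start on build GRCr8, which is a later build than the mRatBN7.2 named for the counts. Both genes are on the minus strand, and both windows read 5′ to 3′ along the gene. Capitals mark the metal response element core, written TGCACNC or TGCGCNC and searched on both strands. The Mt1 window is chr19:10832926-10833225 and the Mt2A window is chr19:10838659-10838958.
Mt1: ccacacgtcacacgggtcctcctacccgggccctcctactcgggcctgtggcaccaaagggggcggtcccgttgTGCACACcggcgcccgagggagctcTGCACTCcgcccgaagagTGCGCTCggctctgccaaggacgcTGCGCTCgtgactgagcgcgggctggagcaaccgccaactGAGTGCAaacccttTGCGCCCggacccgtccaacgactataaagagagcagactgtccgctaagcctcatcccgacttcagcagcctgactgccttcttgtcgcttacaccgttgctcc
Mt2A: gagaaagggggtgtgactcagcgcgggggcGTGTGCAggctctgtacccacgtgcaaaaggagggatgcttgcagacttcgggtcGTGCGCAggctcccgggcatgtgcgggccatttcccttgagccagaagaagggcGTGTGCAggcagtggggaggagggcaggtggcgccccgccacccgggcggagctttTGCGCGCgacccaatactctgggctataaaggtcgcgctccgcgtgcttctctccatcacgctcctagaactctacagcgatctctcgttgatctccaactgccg
The Mt1 window held 6 core matches, 3 of each form, and the Mt2A window held 4, 2 of each form. Among 33469 rat promoter windows of the same length, 24.2% held at least 1 such match, 0.439% held at least 4 and 0.0388% held at least 6. In both windows a TGCGCNC match on the gene strand lay from -55 to -49, counted from the gene start with no position 0. The TATA box hexamer TATAAA, on the gene strand, began at -32 in Mt1 and at -31 in Mt2A, and 14.2% of all windows held one on either strand. The antioxidant response element core TGACNNNGC matched 1 time in each window, from -101 to -93 in Mt1 and from -237 to -229 in Mt2A, against 12.1% of all windows. No matches overlapped. The glucocorticoid receptor hexamer AGAACA, searched on both strands, had 0 matches in either window and occurred in 20.7% of all windows. These are letter matches in a short window and say nothing of binding.

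**Figure D1:**
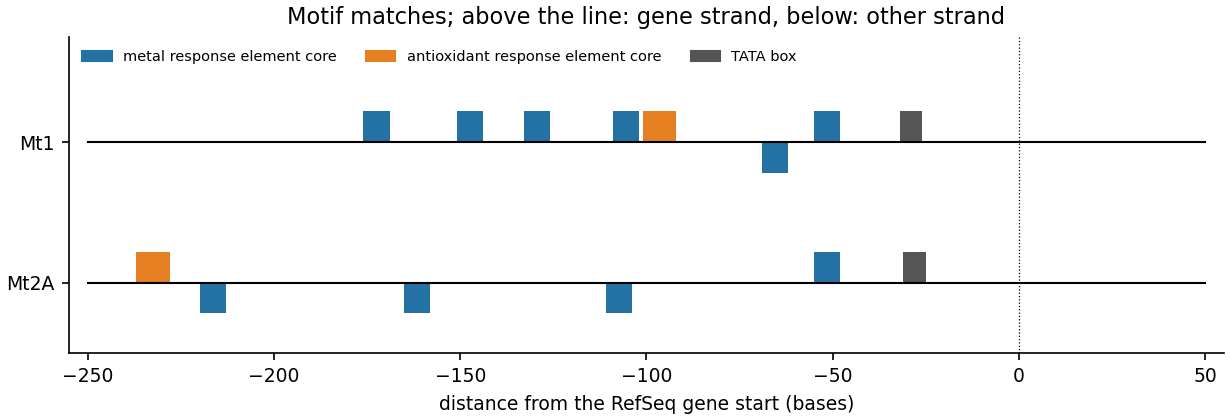
Positions of motif matches in the promoter windows of Mt1 and Mt2A, with distance from the RefSeq gene start in bases on the x axis, and matches on the gene strand above each line and on the other strand below it. Metal response element cores (blue) number 6 in Mt1 and 4 in Mt2A, and a core from -55 to -49 and a TATA box are present in both.

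Libraries held 15397992 to 27881158 gene counts. Several features of the series touch the values below. Desisobutyryl ciclesonide libraries had a lower share of unaligned reads than vehicle libraries (1.08% ± 0.158 against 2.64% ± 0.287 in lung and 1.10% ± 0.258 against 2.69% ± 0.522 in liver, SD, n = 4), and their files are numbered in a series apart from the rest. Library series and drug therefore cannot be told apart. Reads that aligned to more than 1 place were left unassigned, at 2.66% ± 0.179 (liver dexamethasone) to 3.78% ± 0.558 (lung desisobutyryl ciclesonide) of all reads by group mean. Rat metallothionein genes are known to have near-identical pseudogene copies, so the counts of both members are uncertain. These shares are over all reads and set no limit for a single gene. Whether metallothionein reads are among the unassigned reads was not tested. Lung dexamethasone replicates 3 and 4 stood apart. In them 26 genes reached 10 CPM and exceeded all remaining lung libraries 4-fold or more, with summed levels of 3034 and 8999.7 CPM against at most 229 elsewhere. The main lung results are given with and without them.

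At baseline, Mt2A RNA was far higher in liver than in lung, though every lung library held it. Levels are given in CPM, the count scaled to library size, with sizes normalised within each tissue. Mt2A stood at 671, 598, 1562 and 851 CPM in vehicle liver replicates 1 to 4 and at 3.85, 3.11, 4.33 and 3.04 CPM in vehicle lung. The lowest vehicle liver library was 138-fold above the highest vehicle lung library, and over all 24 libraries the lowest liver value was still 6.51-fold above the highest lung value. These folds depend on the scaling across tissues: scaled over all 24 libraries together they were 327 and 15.3, and on library sizes alone 144 and 6.15. In the fit over 24 libraries Mt2A was lower in vehicle lung than in vehicle liver by a log2 difference of -9.23 (SE 0.90, edgeR adjusted p = 6.97e-09), where 71.3% of the 13245 genes tested differed between the tissues. The members were proposed with the level in newborn liver in view, so this difference is a description. The scaling moved this value: on library sizes alone the log2 difference was -8.07, while the median over all genes shifted by 1.14. Set against the median of all genes the difference was -9.30 and -9.28. In whole tissue, fewer cells of a type and less RNA per cell cannot be told apart.

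The Mt1 identifier was counted far less often than Mt2A, and most of its lung values lay at the limit of detection. In liver its counts in replicates 1 to 4 were 65, 84, 229 and 143 with vehicle, which is 3.56, 4.33, 12.7 and 7.62 CPM. In lung its counts were 5, 1, 0 and 1 with vehicle, 0, 2, 0 and 0 with dexamethasone and 1, 2, 1 and 1 with desisobutyryl ciclesonide. All 12 lung libraries held 14 Mt1 counts in total, or 0.0553 CPM (95% exact binomial interval 0.0302 to 0.0928, counting error only). A count of 0 allows up to 3 counts, which is 0.108 to 0.189 CPM in these libraries. With vehicle the liver to lung ratio was 89.1, from 521 counts against 7 (95% counting interval 42.9 to 223). Of the 7 lung counts 5 came from vehicle replicate 1, and without that library the ratio was 232, from 521 counts against 2 (95% counting interval 64.0 to 1924). Mt1 did not pass the expression filter in lung and has no test of a drug effect there. Fitted without the filter, its lung values rested on 7, 2 and 5 counts a group, and edgeR gave adjusted p = 0.355 for dexamethasone and 0.943 for desisobutyryl ciclesonide against vehicle.

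In lung, Mt2A was higher with dexamethasone than with vehicle on average, but the 4 dexamethasone libraries were widely spread. Replicates 1 to 4 stood at 6.44, 46.9, 2.97 and 12.9 CPM. Replicates 1, 2 and 4 lay above all vehicle libraries, and replicate 3 lay below all of them. The group mean was 17.3 ± 20.2 CPM against 3.58 ± 0.620 with vehicle (SD, n = 4). The fitted log2 change was 2.27 (SE 0.80, 95% interval 0.50 to 4.03, edgeR adjusted p = 0.0320), a 4.81-fold rise. Mt2A was thus the 1 member called, in a comparison where 55.6% of the 16108 genes tested were called, and it stood at rank 8333 of them by p. The call was lost without dexamethasone replicate 2 (log2 change 1.05, edgeR adjusted p = 0.144) and without any 1 of the 4 vehicle libraries (2.21 to 2.37, edgeR adjusted p = 0.0578 to 0.0761). It was also lost in an exact permutation test of the log2 CPM (difference 1.55, p = 0.143, n = 4 against 4, smallest possible 0.0286). Without replicates 3 and 4 the log2 change was 2.91 (edgeR adjusted p = 0.00891). That fit left only 2 dexamethasone libraries, at 6.44 and 46.9 CPM. It dropped the library below all vehicle libraries and kept replicate 2, on which the call depended. Replicate 2 also had the highest share of unassigned reads of all 24 libraries, at 31.8%, where the lung dexamethasone libraries began at 28.6%. Its share of unaligned reads (3.50%) was the highest too, and its 18390 detected genes were the fewest in lung. Whether this bears on its Mt2A level was not tested.

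**Figure D2:**
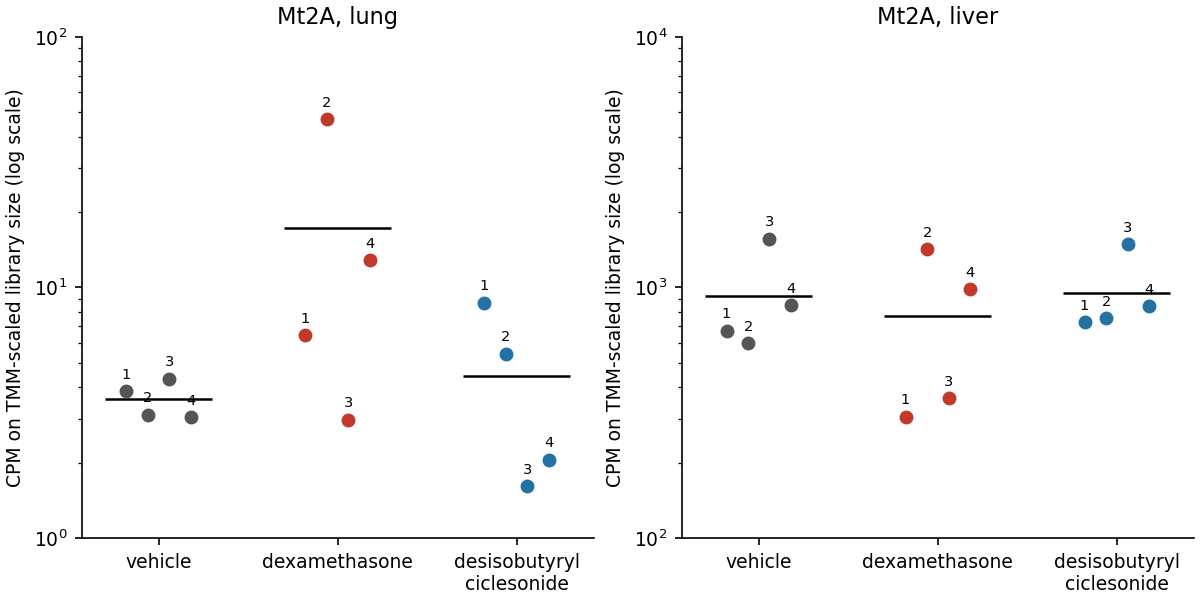
Mt2A in each library, in CPM on a log axis, with lung on the left and liver on the right on separate scales; points are libraries with their replicate number and bars are group means. The vehicle lung libraries sit between 3.04 and 4.33 CPM while the dexamethasone lung libraries run from 2.97 to 46.9 CPM, and the 3 liver groups overlap.

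With desisobutyryl ciclesonide the lung values of Mt2A spread out to both sides of vehicle. Replicates 1 to 4 stood at 8.69, 5.45, 1.61 and 2.05 CPM. Replicates 1 and 2 lay above all vehicle libraries and replicates 3 and 4 below all of them. The mean was 4.45 ± 3.31 CPM (SD, n = 4). The log2 change against vehicle was 0.33 (95% interval -1.40 to 2.06, edgeR adjusted p = 0.800), which leaves room for a 4.18-fold rise or a fall to 0.378 of the vehicle level. In this comparison 24.1% of genes were called. The sign turned without desisobutyryl ciclesonide replicate 1 (-0.22, edgeR adjusted p = 0.883), so no direction is given.

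Set side by side in lung, with the doses unequal, the drugs gave 17.3 ± 20.2 and 4.45 ± 3.31 CPM (SD, n = 4). No desisobutyryl ciclesonide library lay above all dexamethasone libraries, and 2 of the 4 lay below all of them. The direct test missed the threshold, with a log2 difference of -1.94 (95% interval -3.68 to -0.20, edgeR adjusted p = 0.0627), where 49.5% of genes were called. It passed without dexamethasone replicate 1 (-2.21, edgeR adjusted p = 0.0449), dexamethasone replicate 3 (-2.30, 0.0198) or desisobutyryl ciclesonide replicate 1 (-2.48, 0.0429). It also passed without dexamethasone replicates 3 and 4 together (-2.56, edgeR adjusted p = 0.0184), which left 2 dexamethasone libraries. Without dexamethasone replicate 2 it was -0.73 (edgeR adjusted p = 0.325).

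In liver, Mt2A showed no called change with either drug. With dexamethasone replicates 1 to 4 stood at 306, 1421, 361 and 984 CPM, so 2 libraries lay below all vehicle libraries and the other 2 lay within their range. The mean was 768 ± 533 CPM against 920.4 ± 440 with vehicle (SD, n = 4). The log2 change was -0.26 (SE 0.49, 95% interval -1.32 to 0.80, edgeR adjusted p = 0.685), so changes between 0.400 and 1.74 times the vehicle level were within the interval. Dexamethasone changed 47.5% of the 13734 genes tested in liver. Without vehicle replicate 3 the sign turned (0.12, edgeR adjusted p = 0.863).

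With desisobutyryl ciclesonide, liver Mt2A stood at 726, 754, 1487 and 840 CPM, all within the vehicle range of 598 to 1562 CPM. The mean was 952 ± 360 CPM (SD, n = 4). The log2 change was 0.05 (SE 0.49, 95% interval -1.01 to 1.11, edgeR adjusted p = 0.970), in a comparison where 4.52% of genes were called. Its sign turned without vehicle replicate 1 (-0.08), vehicle replicate 2 (-0.11) or desisobutyryl ciclesonide replicate 3 (-0.25). Between the drugs the log2 difference was 0.31 (95% interval -0.75 to 1.37, edgeR adjusted p = 0.629), where 46.3% of genes were called.

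Mt1 in liver showed no called change either. Its levels in replicates 1 to 4 were 1.32, 15.2, 5.33 and 8.55 CPM with dexamethasone and 7.35, 7.69, 11.8 and 3.50 CPM with desisobutyryl ciclesonide. Dexamethasone replicate 1 was the lowest of the 12 liver libraries and replicate 2 the highest. The group means were 7.06 ± 4.16 CPM with vehicle, 7.61 ± 5.88 with dexamethasone and 7.58 ± 3.38 with desisobutyryl ciclesonide (SD, n = 4). The log2 change was 0.11 with dexamethasone (95% interval -1.24 to 1.45, edgeR adjusted p = 0.900) and 0.10 with desisobutyryl ciclesonide (95% interval -1.24 to 1.44, edgeR adjusted p = 0.952). Between the drugs it was -0.01 (95% interval -1.35 to 1.33, edgeR adjusted p = 0.987). The intervals ran from 0.425 to 2.74 times the vehicle level with dexamethasone and from 0.422 to 2.71 times with desisobutyryl ciclesonide. No direction is given, since signs turned without single libraries: vehicle 1 (-0.11), vehicle 2 (-0.07) or dexamethasone 2 (-0.45) for dexamethasone, and vehicle 1 (-0.12), vehicle 2 (-0.08) or desisobutyryl ciclesonide 3 (-0.19) for desisobutyryl ciclesonide. Between the drugs this held for dexamethasone 2 (0.56), dexamethasone 4 (0.05) and desisobutyryl ciclesonide 4 (0.23).

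**Figure D3:**
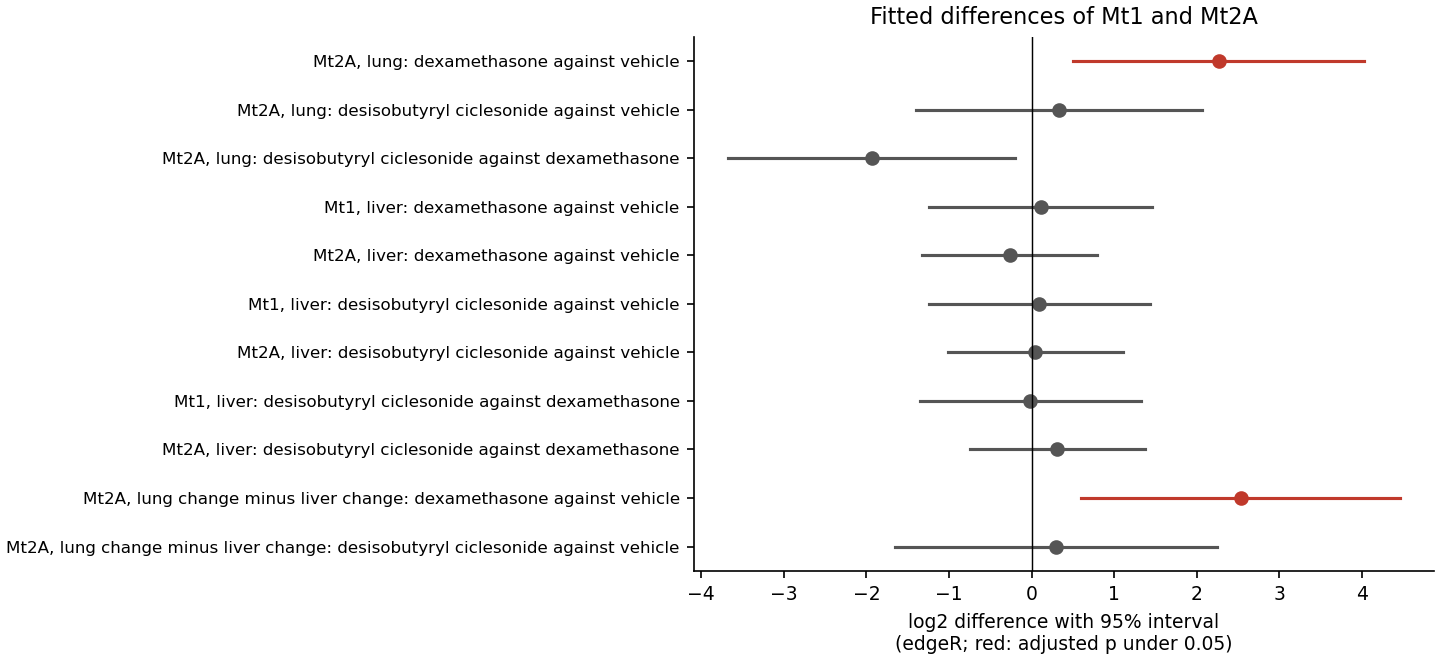
Fitted log2 differences of Mt1 and Mt2A (points) with 95% intervals (lines) from edgeR, red where the adjusted p is under 0.05. The Mt2A change with dexamethasone in lung (2.27) and its difference from the change in liver (2.53) lie above 0, the lung interval between the drugs lies below 0 without passing the adjusted threshold, and all liver intervals span 0.

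The change of Mt2A with dexamethasone differed between lung and liver in the direct test. The lung change exceeded the liver change by 2.53 on the log2 scale (SE 0.93, 95% interval 0.60 to 4.46, edgeR adjusted p = 0.0389), where 34.7% of the 13245 genes tested in both tissues differed. The call was lost without lung dexamethasone replicate 2 (1.39, edgeR adjusted p = 0.183) and without lung vehicle replicates 1, 2 or 4 (2.62, 2.52 and 2.51, edgeR adjusted p = 0.0542, 0.0617 and 0.0631). Leaving out liver vehicle replicate 3 (2.15, edgeR adjusted p = 0.0840) or liver dexamethasone replicates 1 or 3 (2.27 and 2.30, edgeR adjusted p = 0.0727 for each) ended it as well. Without lung dexamethasone replicates 3 and 4, which left 2 lung dexamethasone libraries, the difference was 3.20 (edgeR adjusted p = 0.0103). The main fit took the 24 libraries as independent. With same-numbered lung and liver libraries paired as pups, the difference was 2.04 (SE 0.62, edgeR adjusted p = 0.0199). For desisobutyryl ciclesonide the lung change less the liver change was 0.30 (95% interval -1.65 to 2.25, edgeR adjusted p = 0.911), where 4.31% of genes differed. Its sign turned without lung desisobutyryl ciclesonide replicate 1 (-0.16) or liver vehicle replicate 3 (-0.09). Mt1 could not be tested here because of its low lung counts.

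Ordered by mean level, Mt2A ran from liver with desisobutyryl ciclesonide (952 CPM), liver with vehicle (920.4) and liver with dexamethasone (768) to lung with dexamethasone (17.3), lung with desisobutyryl ciclesonide (4.45) and lung with vehicle (3.58). The 3 liver groups overlapped, and so did the neighbours among the lung groups. Only the step from liver to lung separated all libraries on its 2 sides. Between the vehicle tissues 71.3% of the 13245 genes tested differed, and the members were proposed with the level in newborn liver in view. The share of genes that separate all libraries by tissue was not counted.

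Both members varied more between libraries of the same group than most genes did. The SD of log2 CPM within groups was 1.18 for Mt2A in lung, against a median of 0.25 over the genes tested, and 95.2% of genes lay lower. In liver it was 0.77 for Mt2A and 1.07 for Mt1, against a median of 0.29, with 90.6% and 96.2% of genes lower. Among liver genes within 0.5 of their mean log2 CPM, 94.4% (of 72) and 98.9% (of 1900) lay lower. The spread of Mt2A in lung differed by group: the vehicle libraries spanned 1.43-fold, those with desisobutyryl ciclesonide 5.39-fold and those with dexamethasone 15.8-fold. Without dexamethasone replicates 3 and 4 the lung SD was 1.08, above 94.0% of genes, and the other 2 dexamethasone libraries spanned 7.32-fold. In liver the spans were 2.61-fold, 2.05-fold and 4.65-fold in the same order.

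In the dexamethasone libraries, Mt2A in lung and liver of the same number deviated to the same side. Replicates 2 and 4 lay above and replicates 1 and 3 below the dexamethasone mean of log2 CPM in each tissue, 4 of 4 on the same side, against 3 of 4 with vehicle and 1 of 4 with desisobutyryl ciclesonide. The share of all genes with 4 of 4 was not counted. Deviations over 13245 genes also correlated between same-numbered lung and liver libraries (r from 0.107 to 0.336). In 12 of 12 pairs, r was highest with the liver library of the same number within the treatment. Over all 12 numbers no relation was called (Pearson r = 0.48, permutation p = 0.288, and Spearman rho = 0.38, permutation p = 0.314). Adjusted over 2 relations, these permutation p-values were 0.288 and 0.314. So few points do not show that a relation is absent. Without dexamethasone 2 and vehicle 3, the points farthest from the median of the liver deviations, r was 0.13. Without dexamethasone 3 and 4 it was 0.37 over 10 numbers. Within the library series that holds vehicle and dexamethasone r was 0.82 over 8 numbers (0.89 over 6 without dexamethasone 3 and 4), and the other series holds only 4. Over the 8 numbers without dexamethasone r was -0.36.

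**Figure D4:**
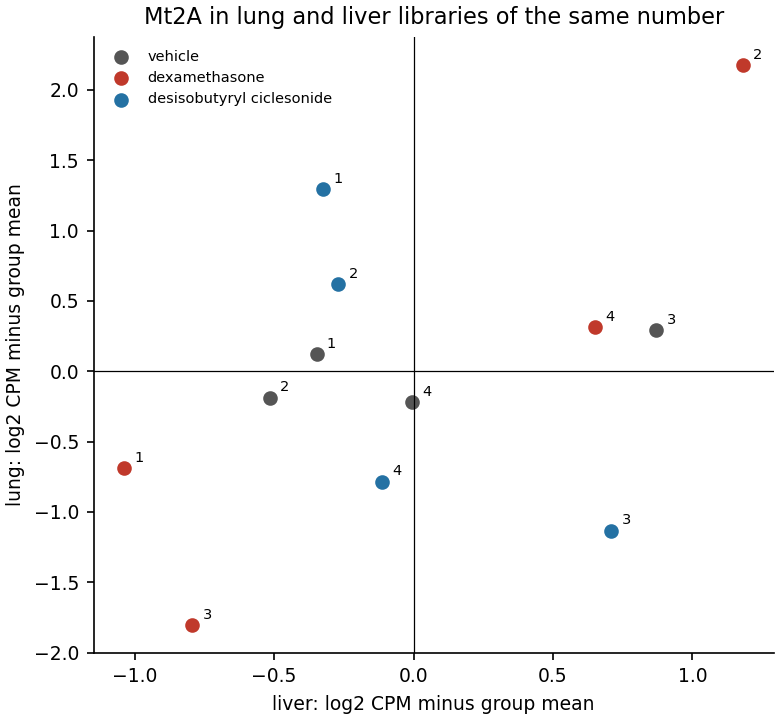
Mt2A deviations from the group mean of log2 CPM, liver on the x axis and lung on the y axis, 1 point for each treatment and replicate number. The 4 dexamethasone points (red) lie at the lower left and upper right, while 3 of the 4 desisobutyryl ciclesonide points (blue) lie in the others.

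Mt1 and Mt2A moved together across liver libraries. After group means were removed, their log2 CPM correlated over the 12 libraries (Pearson r = 0.85, permutation p = 0.00365, adjusted 0.0073; Spearman rho = 0.87, permutation p = 0.00449, adjusted 0.00898). Without dexamethasone 2 and vehicle 3, r was 0.75. Within the series of vehicle and dexamethasone libraries r was 0.90 over 8, and over the 8 libraries without dexamethasone it was 0.78. The members come from the same libraries and share their depth. In every liver library the Mt1 identifier, whose link to the expressed gene was not checked, took far fewer counts, at 0.416% to 1.47% of the Mt2A count (median 0.841%). Mt1 as a share of the Mt2A count was 0.741% ± 0.157 with vehicle, 0.962% ± 0.433 with dexamethasone and 0.810% ± 0.283 with desisobutyryl ciclesonide (SD, n = 4). The groups overlapped, and exact permutation tests found no called difference (p = 0.543, 0.857 and 0.629 for the 3 comparisons, each 0.857 adjusted). The smallest p possible is 0.0286, and 4 lung libraries without any Mt1 count left the ratio undefined there.

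The gene whose pattern was most like Mt2A in liver was ENSRNOG00000025764, which the files do not pair with a name. Whether it is another metallothionein locus, the expressed Mt1 gene included, was not tested, because no annotation of the files' build was used here. Over the 12 liver libraries its log2 CPM correlated with that of Mt2A at Pearson r = 0.98, the highest of 13733 genes compared. It ran from 406 to 1932 CPM, and, with no account of gene length, it held 1.22 to 1.63 counts for each Mt2A count in every liver library. It was lowest in dexamethasone replicate 1 and highest in vehicle replicate 3, as Mt2A was at 306 and 1562 CPM. Mt1 came at rank 4 in likeness to Mt2A (r = 0.84). In lung ENSRNOG00000025764 was low as well, at 3.26 to 25.9 CPM, where r with Mt2A was 0.61 over the 12 libraries and 0.93 once group means were removed (in liver 0.98 and 0.99). Without dexamethasone replicates 3 and 4 the lung values were 0.62 and 0.93 (n = 10). With dexamethasone in lung its log2 change was 0.17 (SE 0.59, edgeR adjusted p = 0.824), beside 2.27 for Mt2A, and 0.51 without replicates 3 and 4 (edgeR adjusted p = 0.523), beside 2.91; the difference between the genes was not tested. In lung its counts for each Mt2A count lay between 0.552 and 1.14 in the 4 dexamethasone lung libraries (0.552 to 0.686 without replicates 3 and 4). In the other 8 they lay between 2.46 and 6.15, a split seen only after the values were. How many of all genes split in this way against Mt2A was not counted, and dexamethasone changed 55.6% of the genes tested in lung. In liver its log2 change with dexamethasone was -0.23 (edgeR adjusted p = 0.688).

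The gene most like Mt2A in lung was ENSRNOG00000002214 (r = 0.91, n = 12, and 0.91 without dexamethasone replicates 3 and 4, n = 10), a far steadier gene at 17.8 to 28.5 CPM that was also highest in dexamethasone replicate 2. Once group means were removed its lung r was 0.91. In liver its r with Mt2A was 0.03, or 0.38 once group means were removed. With dexamethasone in lung its log2 change was 0.36 (SE 0.11, edgeR adjusted p = 0.0161). The gene most like Mt1 in liver was ENSRNOG00000022999 (r = 0.85, n = 12), at 0.883 to 1.78 CPM, with Mt2A at rank 3 (r = 0.84). That level rested on only 12 to 33 counts a library. These likenesses are descriptions over libraries that share treatment and depth.

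**Figure D5:**
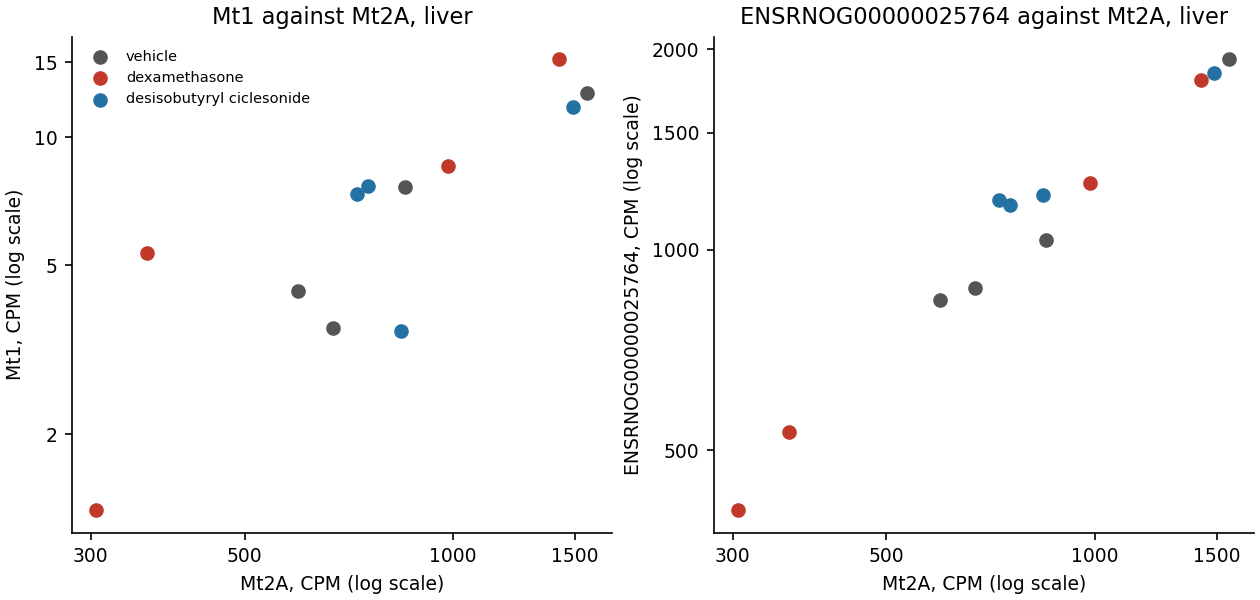
Mt1 (left) and ENSRNOG00000025764 (right) against Mt2A in the 12 liver libraries, in CPM on log axes, coloured by treatment. Over the 12 libraries both tend to be higher where Mt2A is higher, Mt1 between 1.32 and 15.2 CPM with more scatter (desisobutyryl ciclesonide replicate 4 has 3.50 CPM of Mt1 at 840 CPM of Mt2A), and ENSRNOG00000025764 between 406 and 1932 CPM.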

How the data were processed

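The deposited files hold raw counts per Ensembl gene identifier, made by the authors with cutadapt, HISAT2 and HTSeq on build mRatBN7.2, per the submitters' processing notes. Versions, annotation and strand setting are not given in the sources used here, so antisense reads may be included. The protocols in the labels describe polyadenylated RNA and directional libraries. The 5 summary rows for unassigned reads (16.8% to 31.8% of a library) were left out of library sizes and tests. Groups and replicate numbers came from the sample titles. The members and lists were chosen with earlier results of these data known.

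The tests used edgeR 4.0.16 (R 4.3.3): default expression filter, TMM scaling, a robust quasi-likelihood model with a mean for each treatment, fitted to 12 libraries per tissue (24 for tissue differences), F-tests and Benjamini-Hochberg adjustment over all genes tested, threshold 0.05. SEs and 95% intervals were derived from the F statistic and are approximate. The model was also run on simulated counts drawn with spreads estimated from these data, in which far fewer genes changed than were called here. That run therefore cannot vouch for the calls above. Deviations were correlated with 100000 permutations within groups. Of 4 relations planned, the 2 that need Mt1 in lung were not run because of its low counts, and p-values were adjusted over the other 2. Alternatives used DESeq2 1.42.0 and limma 3.58.1 (voom), other scalings, no filter, fewer libraries and replicate blocks. Values without lung dexamethasone 3 and 4 for spread, correlations and like genes, the tissue folds on other scalings and the Mt1 ratio without single libraries were chosen after seeing the data. No library appeared to be deposited 2 times: in 36 replicate pairs the chi-square over its degrees of freedom was at least 11.6. Deviations from group means over 13245 genes correlated between a lung library and its same-numbered liver library in all 12 pairs (r from 0.107 to 0.336), so the numbers were taken to mark pups across tissues, which the labels do not say.

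The gene nearest in pattern to each member was set by rule as the one with the highest Pearson r in that tissue. Promoters matched by symbol for 2 of 2 members and are credited to RefSeq (GRCr8). None of the 30560 identifiers (0) matched the table of 47357 rat genes, so lists of zinc genes, copper and redox genes, glucocorticoid targets, acute phase genes and cell type markers were not analysed here, and the tissue labels were not checked against markers.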

Additional observations from a re-analysis of the deposited data

Results flagged for a closer look

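In liver with desisobutyryl ciclesonide, Mt2A in replicate 3 (1487 CPM) lay far from replicates 1, 2 and 4 (726 to 840 CPM). In CPM, its gap to the next library was 0.850 of the range of the group, above Dixon's 95% limit for 4 libraries. The flag holds for CPM only. On log2 CPM, the scale used above for spread and correlations, replicate 3 lay 0.71 above the group mean. Replicates 1, 2 and 4 stood at -0.33, -0.27 and -0.11 from that mean. Whether replicate 3 passes the limit on log2 CPM was not tested. Chance flags about 1 in 20 groups, and 9 groups were examined. The lung library of the same number was the lowest of the 12 lung libraries for Mt2A, at 1.61 CPM.

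The change of Mt2A with dexamethasone differed between the tissues by 2.53 on the log2 scale (edgeR adjusted p = 0.0389). Over 24 alternatives the adjusted p ran from 0.0103 to 0.183, and 15 of them kept the call.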

How the results depend on the processing

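Lung values of Mt2A rest on 26 to 828 counts a library. The rise of Mt2A with dexamethasone in lung kept its sign in 18 of 18 alternatives and its call in 9. It lost the call with limma-voom (1.46, adjusted p = 0.131), without the low-count filter (2.27, 0.0559), with the replicate block (1.70, 0.0973) and in the exact permutation test of log2 CPM (1.55, p = 0.143), a test added after seeing the data. Leaving out single libraries gave 1.05 to 2.63. The lung less liver difference kept its sign in all 24 alternatives, lost the call with limma-voom (1.90) and without the filter (2.48), and ran from 1.39 to 3.00 without single libraries. With pups as the replicate block it was 2.04 (edgeR adjusted p = 0.0199). Within a tissue, samples of the same number did not deviate together in all pairs (r from -0.27 to 0.21, over 0.1 in 5 of 24), so they share only a number there, and the block changed no other call. The lung difference between the drugs passed with DESeq2 (-1.98) and without dexamethasone replicates 3 and 4 (-2.56), and ran from -2.48 to -0.73 without single libraries.

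Signs turned only where nothing was called. For Mt2A with desisobutyryl ciclesonide in lung the value was -0.00022 with the replicate block, -0.0019 in the exact permutation test and -0.22 to 0.60 without single libraries. For Mt1 in liver with dexamethasone it was -0.13 on library sizes alone, -0.12 with limma-voom, -0.18 in the exact permutation test and -0.45 to 0.55 without single libraries. For Mt1 in liver between the drugs it was 0.21 on library sizes alone, 0.21 with limma-voom, 0.011 without the filter, 0.14 with the replicate block, 0.0035 with 8 libraries, 0.33 in the exact permutation test and -0.35 to 0.56 without single libraries. Without single libraries, the liver changes with desisobutyryl ciclesonide ran from -0.19 to 0.54 (Mt1) and from -0.25 to 0.43 (Mt2A), that of Mt2A with dexamethasone from -0.74 to 0.12, and the tissue difference for desisobutyryl ciclesonide from -0.16 to 0.64. The log2 Mt1 to Mt2A ratio ran from -0.083 to 0.36 (desisobutyryl ciclesonide against vehicle) and from -0.54 to 0.090 (between the drugs). Correlations without the 2 farthest points were 0.75 (Mt1 with Mt2A) and 0.13 (lung with liver). Library sizes alone shifted the median of all liver genes by -0.24 with dexamethasone.

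Of the counts of genes called, desisobutyryl ciclesonide moved most: 1191 with DESeq2 against 621 in liver, 295 to 482 there without single libraries, 2564 to 3366 in lung against 3884, and 967 with DESeq2 against 571 for the tissue difference. The cause was not tested. The ratio with 0.5 added was not run for lung.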
